A study of Mus musculus with 15 samples.

Results

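Over-expression of Mta1 was examined in mouse embryonic fibroblasts (MEFs) that lack P53, by setting the 3 P53-KO/Mta1 arrays against the 3 P53-KO arrays. These are 6 of the 15 arrays of the series, and all 16755 probe rows of the deposited table were compared. P53-KO/Mta1 are P53-/- MEFs into which Mta1 was introduced by transfection, and P53-KO are P53-/- MEFs that were not. Both groups are labelled as C57BL/6J MEFs of embryonic day 12.5, so they share the P53 deletion, the strain and the age. The remaining groups are Mta1-KO/Mta1 (Mta1-/- MEFs with Mta1 reexpressed), Mta1-KO (Mta1-/- MEFs) and WT MEFs, 3 arrays each, labelled as day 9, so that for these the genotype and the age cannot be told apart from the difference to the P53-KO lines. Per the methods the P53-KO MEFs came from another laboratory. The methods call the 3 arrays of a group biological replicates. Nothing in the sources used here says whether they came from separate embryos or separate transfections, and the p-values cover no more than array-to-array variation, possibly technical.

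Mta1 (metastasis associated 1) is a subunit of NuRD, the nucleosome remodeling and histone deacetylase complex, which slides nucleosomes and removes acetyl groups from histones and other proteins. NuRD is best known for repressing genes, and Mta1 can also act where genes are turned on. P53 is a transcription factor that stops the cell cycle or triggers cell death after DNA damage, and fibroblasts without it go on dividing in culture. Fibroblasts make the collagen-rich matrix of connective tissue, the proteases that cut it, and, when stimulated by cytokines, acute phase proteins and chemokines. The comparison asks which transcripts differ after Mta1 is introduced where no P53 is present. No mock-transfected group is among the arrays, so effects of transfection and of Mta1 cannot be told apart.

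Total RNA was hybridised to Affymetrix Mouse Exon 1.0 ST arrays, and each deposited value is a normalized log2 value relative to the median of its row over the 15 arrays. A value of 0 is therefore the middle array of that row and not an absent transcript, and no level can be set between genes. The medians of the 6 arrays lay between -0.0119 and 0.0231. The Euclidean distance over all rows was 19.2 to 29.6 between arrays of 1 group and 46.2 to 50.002 between the groups, so that the 2 groups did not mix. Of the marker genes of other cell types, 0 of 8 endothelial, 0 of 9 blood and macrophage, 0 of 7 epithelial, 0 of 6 muscle, 0 of 6 fat and 0 of 7 cartilage and bone markers passed the thresholds given below, which 1.22% of all rows passed as falls and 0.394% as rises. Of 7 neural markers 2 passed, Sox2 as a rise and Map2 as a fall. The Y-linked genes Kdm5d and Eif2s3y were low on all 6 arrays, with means of -1.82 and -3.95 in P53-KO/Mta1 and -1.78 and -3.96 in P53-KO, against 0.17 and -0.02 in WT.

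The introduced gene was examined first. The Mta1 row read 0.65, 0.76 and 0.65 on the P53-KO/Mta1 arrays, against 0.36, 0.52 and 0.37 on the P53-KO arrays. All 3 P53-KO/Mta1 values lay above all P53-KO values, and the log2 difference was 0.27 with a standard error of 0.066, a fold of 1.21 (limma, adjusted p = 0.00603). The methods' t-test on the same values gave an adjusted p of 0.0759. The same row read -1.13, -1.35 and -1.28 in Mta1-KO/Mta1, against -1.06, -1.08 and -1.10 in Mta1-KO. All 3 Mta1-KO/Mta1 arrays thus lay below all Mta1-KO arrays, with a difference of -0.17 (adjusted p = 0.0669), although Mta1 is labelled as reexpressed there. The WT arrays averaged 0.01. Whether the probes of this row lie in the introduced sequence was not tested, and the row is a limited check of the labels for that reason. The paper also compared Mta1 protein in all 5 groups by Western blot, which was not examined here. The paralog Mta2 differed by 0.21 (adjusted p = 0.0245) and Mta3 by -0.26 (adjusted p = 0.037). No row reads Trp53 alone, so the P53 deletion was not checked here.

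Large changes were mostly falls. A row was called at a Benjamini-Hochberg adjusted p under 0.05 (limma, over all rows) together with a fold of at least 2. By this rule 205 rows were lower in P53-KO/Mta1 (1.22% of all rows) and 66 were higher (0.394%), so that 75.6% of the called rows were falls. Quantile normalization was run on the row-centred values of all 15 arrays. It gives every array the same distribution, so real differences in spread between the groups are removed as well. After it the split was 157 lower and 85 higher, or 64.9% falls, and 200 of the main calls were shared. The falls were also larger. The median size was 1.37 on the log2 scale for called falls and 1.14 for called rises, and 34 falls but 1 rise reached a fold of 4. By adjusted p alone the balance was near even, with 2377 rows lower (14.2%) and 2626 higher (15.7%). The 3 arrays of one group all lay below the other 3 in 3192 rows that were lower in P53-KO/Mta1 (19.1%) and all lay above in 3036 rows that were higher (18.1%), and this held for every one of the 271 called rows. A single gene was annotated for 185 of the falls and 58 of the rises.

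**Figure D1:**
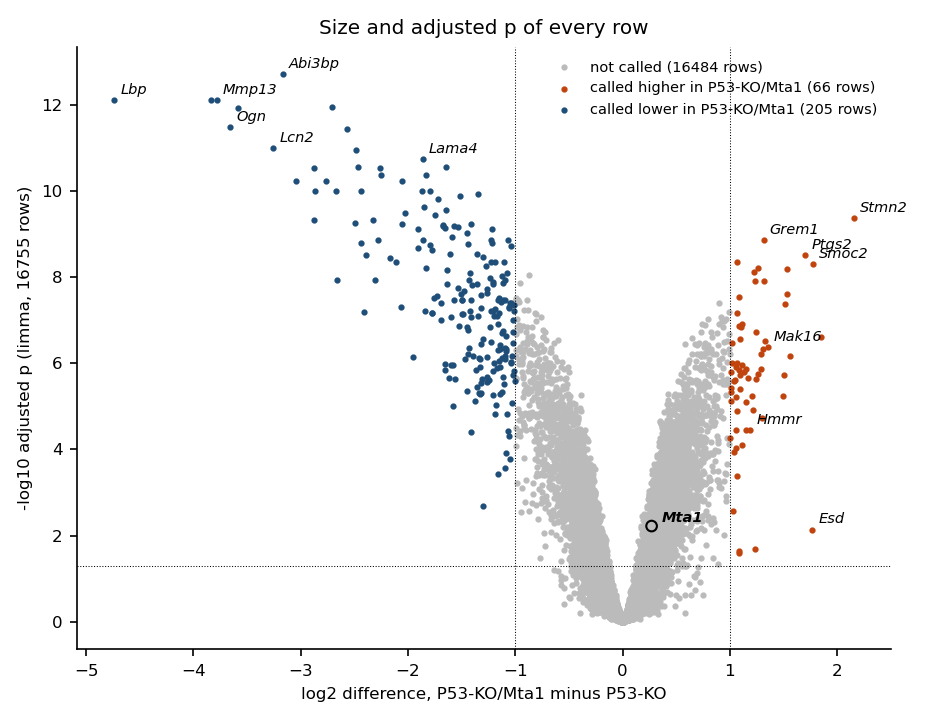
Each point is 1 of the 16755 probe rows, with the log2 difference of P53-KO/Mta1 minus P53-KO on the x axis and -log10 of the adjusted p from limma on the y axis. Dotted lines mark a fold of 2 and an adjusted p of 0.05. The 205 called falls reach -4.74 (Lbp), the 66 called rises reach 2.16 (Stmn2), and the circled Mta1 row stands at 0.27.

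Acute phase proteins, which are made in inflammation mainly by the liver but also by stimulated fibroblasts, held the largest fall of the comparison. Lbp, the protein that binds bacterial lipopolysaccharide and passes it to its receptor, read -2.92, -2.95 and -3.18 in P53-KO/Mta1, against 1.58, 1.93 and 1.65 in P53-KO. The groups lay far apart, and Lbp was 26.7-fold lower in P53-KO/Mta1 (log2 difference -4.74, standard error 0.096, adjusted p = 7.83e-13). The P53-KO/Mta1 arrays lay just above the WT mean of -3.48. Lcn2, which encodes the iron-siderophore carrier lipocalin 2, read -2.28, -2.31 and -2.18 in P53-KO/Mta1, against 0.92, 1.12 and 0.97 in P53-KO, and was 9.56-fold lower (adjusted p = 1.00e-11). Saa3, a serum amyloid A that is induced in many tissues, read 0.66, 0.90 and 1.06 in P53-KO/Mta1, against 3.32, 3.74 and 3.55 in P53-KO (6.34-fold lower, adjusted p = 1.19e-08). The WT means were -2.87 for Lcn2 and -1.71 for Saa3, and all P53-KO/Mta1 arrays lay above them.

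Of 26 measured acute phase genes, 8 fell past both thresholds and 0 rose, with 11 lower and 0 higher by adjusted p alone. The other called members were Steap4, a metalloreductase (-2.76), Itih2, a heavy chain of the hyaluronan-binding inter-alpha-trypsin inhibitor (-2.71), the protease inhibitor Serpina3n (-1.60), the haemoglobin carrier Hp (-1.33) and Agt, the precursor of angiotensin (-1.22). The list's median was -0.14, against -0.02 over all rows. Past both thresholds 1.22% of all rows fell and 0.394% rose, and by adjusted p alone 14.2% and 15.7%. Liver products such as Alb, Fga and Crp differed by -0.11, -0.01 and -0.01 and did not pass the test. Of 21 complement genes 3 fell and 0 rose. They were Clu (-1.77), the C1 inhibitor Serping1 (-1.36) and the C1 protease C1ra (-1.04), and C1ra was just under a fold of 2 when P53-KO replicate 1 or 2 was left out (-0.99 each).

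Several matrix-degrading proteases fell. Mmp13, an interstitial collagenase, read 0.96, 0.85 and 0.82 in P53-KO/Mta1, against 4.58, 4.67 and 4.73 in P53-KO, and was 13.8-fold lower (log2 difference -3.78, standard error 0.079, adjusted p = 7.83e-13). Mmp3 or stromelysin, which cuts proteoglycans and activates other proteases, read 1.12, 0.86 and 1.13 in P53-KO/Mta1, against 3.78, 4.07 and 3.85 in P53-KO (7.27-fold lower, adjusted p = 1.03e-10). Both were high on all 3 P53-KO arrays, while their WT means were -0.28 and -0.62. Adamts1 and Adamts5, proteases that cut aggrecan and versican, fell by 1.84 and 1.15 on the log2 scale, Mmp19 by 1.14 and the gelatinase Mmp2 by 1.09. In all, 6 of 32 measured proteases and inhibitors of this list fell and 0 rose, set against 1.22% and 0.394% of all rows. Plau and Plaur, the urokinase protease and its receptor, differed the other way by 0.60 and 0.69 and stayed under a fold of 2. The tissue inhibitor Timp3 differed by -0.25 (adjusted p = 0.0278).

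The promoters of these genes are shown because the genes moved together, and they were searched for 6 short motifs on both strands. The sequences are from RefSeq (GRCm38.p6), run 5′ to 3′ along the gene's strand over the 250 bases before and 50 bases after the start site, and carry matches in capitals. In Saa3 the capitals are 4 matches to the C/EBP motif (TTNNGNAA), at -216, -191, -129 and -99 from the start site, the third of them overlapping a match to the interferon response element at -125. In Lcn2 they are 1 C/EBP match at -216. In Mmp13 they are an interferon response element at -146, an AP-1 match (TGANTCA) at -35 and a TATA box (TATAAA) at -16. In Mmp3 they are C/EBP matches at -229, -148 and -81, an AP-1 match at -46 and a TATA box at -7.
Saa3 promoter, chr7:46715627-46715926, minus strand: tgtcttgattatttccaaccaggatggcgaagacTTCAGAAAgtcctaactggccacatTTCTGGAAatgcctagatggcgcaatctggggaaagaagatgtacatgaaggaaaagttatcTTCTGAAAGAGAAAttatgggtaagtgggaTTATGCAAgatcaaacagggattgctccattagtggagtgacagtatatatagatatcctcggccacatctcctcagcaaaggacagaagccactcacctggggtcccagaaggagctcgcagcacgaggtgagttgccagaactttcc
Lcn2 promoter, chr2:32387690-32387989, minus strand: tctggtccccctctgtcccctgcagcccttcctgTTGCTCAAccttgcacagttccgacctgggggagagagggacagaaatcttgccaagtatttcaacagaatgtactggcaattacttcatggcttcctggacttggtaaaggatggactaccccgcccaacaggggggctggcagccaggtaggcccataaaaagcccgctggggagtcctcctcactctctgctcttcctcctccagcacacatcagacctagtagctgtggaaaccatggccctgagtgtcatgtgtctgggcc
Mmp13 promoter, chr9:7272264-7272563, plus strand: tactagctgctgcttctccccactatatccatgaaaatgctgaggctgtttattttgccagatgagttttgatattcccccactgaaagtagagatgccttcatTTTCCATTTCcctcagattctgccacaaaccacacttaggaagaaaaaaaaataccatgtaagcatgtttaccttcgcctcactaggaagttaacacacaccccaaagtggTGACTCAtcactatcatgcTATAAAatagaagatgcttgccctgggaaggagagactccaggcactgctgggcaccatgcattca
Mmp3 promoter, chr9:7445572-7445871, plus strand: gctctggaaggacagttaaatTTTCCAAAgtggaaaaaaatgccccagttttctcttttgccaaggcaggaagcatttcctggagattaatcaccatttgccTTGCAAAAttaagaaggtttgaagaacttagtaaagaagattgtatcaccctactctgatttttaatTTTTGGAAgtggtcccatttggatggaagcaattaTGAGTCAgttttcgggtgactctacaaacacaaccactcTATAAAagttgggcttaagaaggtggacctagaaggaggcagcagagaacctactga
Promoters were found in the table for 131 of the 185 genes called lower (163 promoters) and for 46 of the 58 called higher (61 promoters). A TATA box was present in 18.4% of the promoters of genes called lower, 3.28% of those called higher and 10.9% of those of all genes tested. The C/EBP motif was present in 44.2%, 36.1% and 34.7%, and the AP-1 motif in 7.98%, 8.20% and 6.77%. An E-box (CACGTG) was present in 5.52%, 13.1% and 8.61%, the interferon response element in 5.52%, 0% and 3.11%, and the NF-kB motif in 3.68%, 3.28% and 5.02%. C/EBP matches were found in 5 of 6 promoters of the called acute phase genes (83.3%). These shares describe letters in a window of 300 bases and were not tested.

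**Figure D2:**
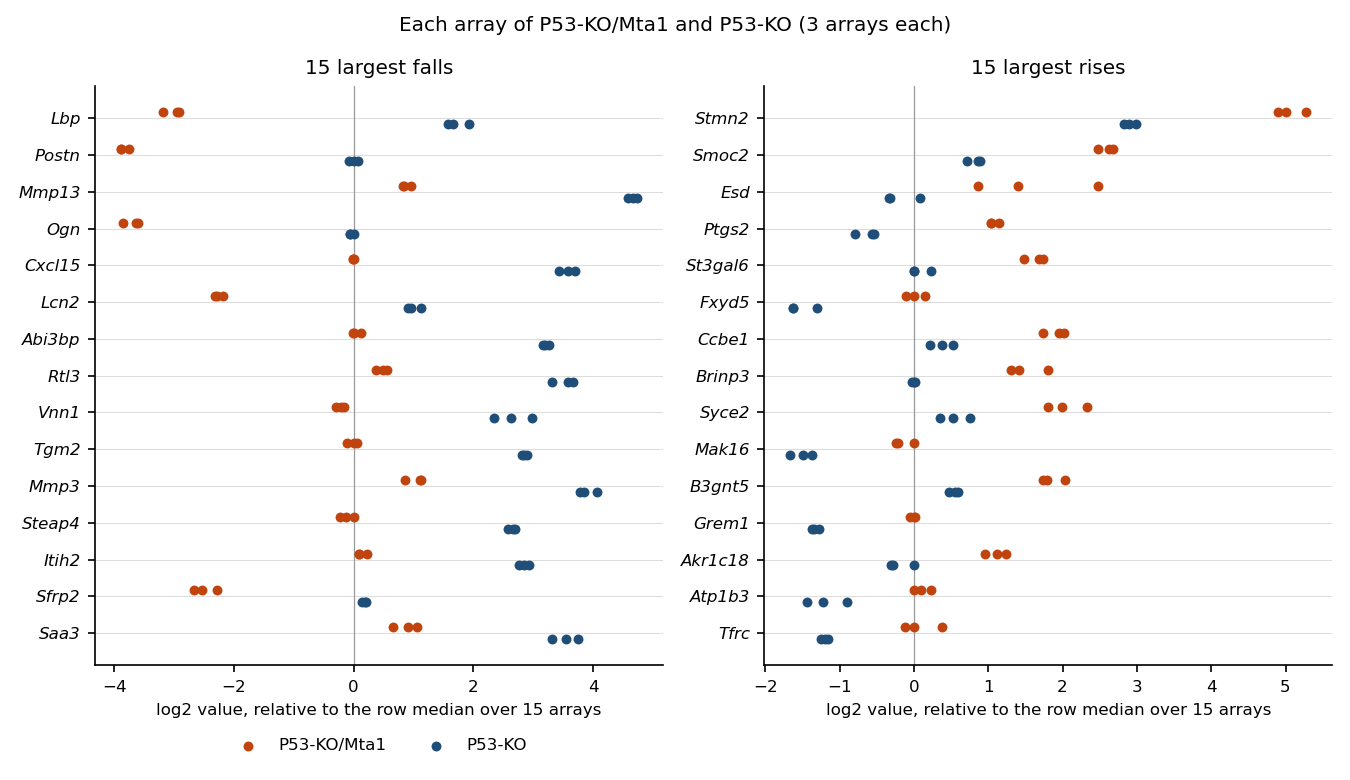
Each dot is 1 array, with the log2 value relative to the row median over 15 arrays on the x axis and the 15 largest falls (left) and 15 largest rises (right) among called single genes down the page. P53-KO/Mta1 arrays are drawn above P53-KO arrays within each gene. The groups do not overlap for any of the 30 genes, and Esd has the widest spread, from 0.87 to 2.48 in P53-KO/Mta1.

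Of the gene lists, matrix proteoglycans and matricellular proteins held the most called falls by count (14 of 49). The lists differ in length, and the acute phase list had 8 of 26. Postn, which encodes periostin, a matricellular protein that binds integrins and collagen, read -3.75, -3.89 and -3.88 in P53-KO/Mta1, against 0.07, -0.08 and 0.00 in P53-KO. It was 14.3-fold lower (log2 difference -3.84, standard error 0.079, adjusted p = 7.83e-13) and lay at the WT mean of -3.94. Ogn, a small leucine-rich proteoglycan, read -3.64, -3.85 and -3.60 in P53-KO/Mta1, against -0.06, -0.05 and 0.00 in P53-KO (12.6-fold lower, adjusted p = 3.33e-12). Here the WT mean of 0.04 lay with P53-KO, so the P53-KO/Mta1 arrays were the lowest of the series. Abi3bp read 0.13, -0.01 and 0.00 in P53-KO/Mta1, against 3.17, 3.27 and 3.20 in P53-KO (9.00-fold lower, adjusted p = 1.99e-13).

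Among 49 matrix proteoglycans and matricellular proteins 14 fell and 1 rose past both thresholds, and 28 fell and 8 rose by adjusted p alone, with a list median of -0.38. The shares of all rows were 1.22% and 0.394% past both thresholds, and 14.2% and 15.7% by adjusted p alone. Beside the genes above, falls were seen for the matrix cross-linking enzymes Tgm2 (-2.87) and Loxl2 (-1.43), the proteoglycans Aspn (-2.49), Prelp (-1.34) and Lum (-1.27), and the large multidomain proteins Svep1 (-2.48) and Sned1 (-2.46). Members of the CCN family went apart. Ccn5 (-1.84) and Ccn3 (-1.65) fell, while Ccn2, the connective tissue growth factor, rose by adjusted p alone (0.56). Smoc2, a calcium-binding matricellular protein, read 2.47, 2.68 and 2.62 in P53-KO/Mta1, against 0.71, 0.90 and 0.86 in P53-KO, and was the exception that rose past a fold of 2 (3.41-fold, adjusted p = 5.09e-09).

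Collagen falls were smaller. Of 34 chains 20 fell and 0 rose by adjusted p alone, with a median of -0.36, and 4 fell past both thresholds. By adjusted p alone 14.2% of all rows fell and 15.7% rose, and 1.22% fell past both thresholds. Col11a1, a fibril-regulating chain, read 0.49, 0.46 and 0.47 in P53-KO/Mta1, against 2.18, 1.92 and 1.83 in P53-KO (2.83-fold lower, adjusted p = 3.40e-08). The others were Col14a1 (-1.16), Col15a1 (-1.12) and the fibrillar Col3a1 (-1.17), of which Col3a1 stood at -0.61 after quantile normalization. The chains of type I collagen, Col1a1 and Col1a2, differed by -0.76 and -0.85. Fibroblast markers, several of which are matrix genes themselves, moved the same way. Of 13 measured markers 8 fell by adjusted p and 0 rose, among them Pdgfrb (-0.996), Thy1 (-0.60) and Pdgfra (-0.54), while Vim (0.10) and S100a4 (0.19) did not pass the test. The median difference over these 13 markers was -0.60, against -0.02 over all rows. Their median value was -0.06 in P53-KO/Mta1 and 0.22 in P53-KO. Fewer cells of a type and less RNA per cell cannot be told apart in such bulk samples, and the part of the markers in the matrix falls was not tested.

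Calls were also made among genes of contractile fibroblasts and of adhesion. Actg2, an actin of smooth muscle, read 0.62, 0.81 and 1.05 in P53-KO/Mta1, against 2.34, 3.15 and 2.86 in P53-KO (3.88-fold lower, adjusted p = 7.09e-07), and the actin-binding Cnn1 was 2.56-fold lower. These were the 2 called of 21 contractile genes, of which 8 fell and 5 rose by adjusted p alone. Of 35 adhesion genes 3 fell and 2 rose past both thresholds, and 6 fell and 10 rose by adjusted p alone. For all rows these shares were 1.22% and 0.394% past both thresholds, and 14.2% and 15.7% by adjusted p alone. Lama4, a laminin chain of basement membranes, read -1.87, -1.87 and -1.85 in P53-KO/Mta1, against 0.00, 0.01 and 0.00 in P53-KO, a fall of 3.64-fold (adjusted p = 1.83e-11). The collagen-binding integrin Itga11 (-1.02) and the mesenchymal cadherin Cdh11 (-1.01) lay just past the minimum fold and fell short of it after quantile normalization (-0.91 each), which left 1 fall and 2 rises in the adhesion list. Cdh6, another cadherin, was 2.12-fold higher, and Fxyd5, a regulator of the sodium pump that also lowers cell adhesion, read 0.00, -0.11 and 0.14 in P53-KO/Mta1, against -1.63, -1.31 and -1.62 in P53-KO (2.89-fold higher, adjusted p = 2.46e-08).

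Chemokine genes moved in both directions. Cxcl15 read -0.02, 0.00 and -0.01 in P53-KO/Mta1, against 3.69, 3.59 and 3.43 in P53-KO, with a log2 difference of -3.58 (adjusted p = 1.22e-12). The P53-KO arrays stood alone in the series for this gene, whose mean was -0.03 in WT and 0.05 in Mta1-KO. Cxcl5, like Cxcl15 an attractant of neutrophils, was 4.16-fold lower and Ppbp 3.31-fold lower, with Ppbp at -0.95 after quantile normalization in place of -1.73. Cxcl11, an interferon-induced ligand of the receptor CXCR3, read 0.00, -0.16 and 0.25 in P53-KO/Mta1, against -1.26, -1.21 and -1.32 in P53-KO (2.45-fold higher, adjusted p = 1.36e-06). The remaining 27 of 31 chemokine genes were not called, and the list median was -0.03. Among all rows 1.22% were called lower and 0.394% higher.

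Of 31 inflammatory mediators and NF-kB genes 4 fell and 0 rose past both thresholds, set against 1.22% and 0.394% of all rows. By adjusted p alone 14 fell and 6 rose, where 14.2% of all rows fell and 15.7% rose. Vnn1, the pantetheinase that releases cysteamine, was 7.33-fold lower, Il1rn, the antagonist of interleukin 1 receptors, 4.86-fold lower, the alarmin Il33 3.75-fold lower, and Nos2, the inducible nitric oxide synthase, 2.20-fold lower (adjusted p = 3.79e-08), of which Nos2 stood at -0.96 after quantile normalization. By contrast Ptgs2, or cyclooxygenase 2, the inducible enzyme of prostaglandin synthesis, rose. Its values were 1.03, 1.04 and 1.15 in P53-KO/Mta1, against -0.79, -0.54 and -0.56 in P53-KO, a fold of 3.26 (log2 difference 1.70, standard error 0.081, adjusted p = 3.06e-09). Of 21 genes of prostaglandin synthesis and response 3 fell and 2 rose past both thresholds, set against the same 1.22% and 0.394% of all rows. By adjusted p 12 of the 21 did not pass. The falls were in receptors and a transporter. Ptgfr, the receptor of prostaglandin F2alpha, fell by 1.66 on the log2 scale, the transporter Slco2a1 by 1.32 and the prostaglandin E receptor Ptger3 by 1.09. Pla2g7, which inactivates platelet-activating factor, was 2.01-fold higher and fell short of the minimum fold when any of 4 single arrays was left out (0.96 to 0.98). After quantile normalization 2 of these 5 genes were still called, Slco2a1, Ptger3 and Pla2g7 being under a fold of 2.

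Interferon-stimulated genes shifted together by small amounts. Of 29 measured, 21 fell and 0 rose by adjusted p alone, set against 14.2% of all rows lower and 15.7% higher, and the list median was -0.28 here and after quantile normalization. Trim30a was the member past both thresholds, with -1.76, -1.45 and -1.43 in P53-KO/Mta1, against 0.02, 0.00 and -0.15 in P53-KO (2.84-fold lower, adjusted p = 2.46e-08). Oasl2, an antiviral protein of the oligoadenylate synthetase family, differed by -0.87. Past both thresholds 1.22% of all rows fell and 0.394% rose, shares at which short lists give few or no calls. Among 16 antigen presentation genes 0 were called, and the largest differences were those of the peptide transporter subunit Tap1 (-0.67) and the immunoproteasome subunit Psmb9 (-0.56).

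Secreted WNT regulators were prominent among the falls. Sfrp2, a decoy that binds WNT ligands, read -2.67, -2.28 and -2.54 in P53-KO/Mta1, against 0.19, 0.20 and 0.14 in P53-KO (6.39-fold lower, adjusted p = 1.01e-10). Its relative Sfrp1 read -0.03, 0.30 and 0.09 in P53-KO/Mta1, against 1.89, 1.99 and 1.97 in P53-KO (3.56-fold lower, adjusted p = 6.17e-09). The enhancers of WNT signalling Rspo2 and Rspo3 (-1.64 and -1.04), the ligand Wnt5a (-1.42) and the receptors Fzd4 and Fzd1 (-1.23 and -1.06) fell as well, so that inhibitors, enhancers, a ligand and receptors were all among the 7 members called lower of 48, with 0 higher. Past both thresholds 1.22% of all rows fell and 0.394% rose. By adjusted p alone 19 members of the WNT list fell and 4 rose, where 14.2% of all rows fell and 15.7% rose. After quantile normalization Fzd1 (-0.95) and Rspo3 (-0.92) fell short of the minimum fold and the receptor Fzd6 was called higher (1.14 in place of 0.38), so that 5 were lower and 1 higher. Axin2, a general target of the beta-catenin branch, differed by -0.06, and Lef1, a transcription factor of that branch, by 0.41. In the TGF-beta and BMP list of 42 genes Tgfb3 (-1.21) and the latent TGF-beta binding protein Ltbp2 (-1.15) fell, Ltbp2 reaching -0.999 without P53-KO replicate 2. Grem1, an antagonist of BMPs, read -0.05, 0.00 and 0.01 in P53-KO/Mta1, against -1.27, -1.34 and -1.37 in P53-KO, and was 2.49-fold higher (adjusted p = 1.41e-09).

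Of 55 growth factor and receptor genes 6 fell and 0 rose past both thresholds, set against 1.22% and 0.394% of all rows. By adjusted p alone 23 fell and 6 rose, where 14.2% of all rows fell and 15.7% rose. Angpt1, the ligand that activates the receptor TIE2, was 3.23-fold lower, Fgf10 was 3.18-fold lower, and the insulin-like growth factor binding protein Igfbp4 was 2.23-fold lower. Egfr, the epidermal growth factor receptor, read 1.41, 1.20 and 1.31 in P53-KO/Mta1, against 2.69, 2.80 and 2.64 in P53-KO (2.65-fold lower, adjusted p = 1.50e-08). Egfr and Igfbp2 (-1.41) had the highest values of the series in both P53-KO groups, and after quantile normalization they stood at -0.78 and -0.58, under a fold of 2. Igfbp4 stood at -0.20 there and did not pass the test (adjusted p = 0.194), which left 3 called genes in this list. The EGF receptor ligands Ereg and Hbegf differed by 0.76 and 0.50. Vegfa, the vascular growth factor, read 0.84, 0.95 and 0.88 in P53-KO/Mta1, against 0.88, 0.85 and 0.998 in P53-KO. The difference of -0.02 did not pass the test (adjusted p = 0.859) and turned to 0.23 after quantile normalization.

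Both members of the imprinted H19 and Igf2 pair fell. H19, a maternally expressed non-coding RNA, read 0.29, 0.55 and 0.62 in P53-KO/Mta1, against 3.08, 3.09 and 2.54 in P53-KO (5.33-fold lower, adjusted p = 6.34e-08). Igf2, the paternally expressed growth factor beside it, read 0.00, 0.04 and -0.05 in P53-KO/Mta1, against 1.25, 1.41 and 1.28 in P53-KO (2.49-fold lower, adjusted p = 2.81e-06). Over 19 imprinted growth genes the median was -0.43, with 11 lower and 1 higher by adjusted p alone. Among all rows 14.2% were lower and 15.7% higher by that measure. H19 and Igf2 are 1 of 11 cases in which a pair of genes next to each other among the 14805 measured genes with a position were both called lower. Other such pairs were Adamts1 and Adamts5, Cxcl5 and Ppbp, Angpt1 and Rspo2, Abca1 and Slc44a1, and Ch25h and Lipa. Il7 and Stmn2 were the 1 neighbouring pair called higher. Of the 14805 genes 185 were called lower and 58 higher, and the number of pairs was not tested against a random spread.

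Of 29 genes of lipid handling 4 fell and 1 rose past both thresholds, with 13 lower and 6 higher by adjusted p alone. Past both thresholds 1.22% of all rows fell and 0.394% rose, and by adjusted p alone 14.2% and 15.7%. Ch25h, which makes 25-hydroxycholesterol, was 3.16-fold lower, the cholesterol exporter Abca1 3.13-fold lower, Angptl4, an inhibitor of lipoprotein lipase, 2.71-fold lower, and Cyp7b1, which hydroxylates oxysterols, 2.49-fold lower. Abca1 read -1.70, -1.61 and -1.61 in P53-KO/Mta1, against -0.07, 0.00 and 0.08 in P53-KO. Of 18 cholesterol synthesis genes 0 were called. Of 34 genes of oxidative stress and detoxification 5 fell and 1 rose past both thresholds, and 9 fell and 8 rose by adjusted p alone. After quantile normalization 5 fell and 3 rose, Gclc and Gsr of the glutathione system being added (1.07 and 1.10 in place of 0.90 and 0.93). Among them the carbonyl reductase Cbr2 fell 5.43-fold, the aldehyde dehydrogenase Aldh3a1 3.47-fold and the extracellular superoxide dismutase Sod3 2.48-fold, while Akr1c18, which inactivates progesterone, was 2.47-fold higher. The fatty acid binding protein Fabp3 was 2.04-fold higher, at 2.56, 2.25 and 3.17 in P53-KO/Mta1, against 1.28, 1.88 and 1.74 in P53-KO, and was not called by the methods' t-test (adjusted p = 0.130), nor without P53-KO replicate 1 (0.86) or P53-KO/Mta1 replicate 3 (0.78).

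Klf15, a Kruppel-like transcription factor induced by glucocorticoids, read 0.01, 0.00 and -0.12 in P53-KO/Mta1, against 1.62, 1.72 and 1.63 in P53-KO (3.23-fold lower, adjusted p = 3.96e-08). It was the one gene called among 34 Kruppel-like and immediate early factors, where 1.22% of all rows were called lower and 0.394% higher. By adjusted p alone 3 of the 34 fell and 15 rose, set against 14.2% and 15.7% of all rows. After quantile normalization Ier3 of this list was called higher as well (1.12 in place of 0.88). Rnf144a, a ubiquitin ligase, read -0.36, -0.42 and -0.28 in P53-KO/Mta1, against 0.72, 0.73 and 0.79 in P53-KO (2.15-fold lower, adjusted p = 4.57e-09), and stood at -0.98 after quantile normalization. Of other genes the study followed, Egr2 differed by -0.10 (adjusted p = 0.487) and Jade1 by 0.66 (adjusted p = 9.09e-06), under a fold of 2. AW551984, which the paper calls the mouse homolog of human VWA5A, differed by -0.26 (adjusted p = 0.0318). A separate row annotated as mouse Vwa5a differed by -0.66 (adjusted p = 0.000154), also under a fold of 2.

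Turning to the rises, Stmn2 was the largest. This microtubule-destabilising protein, known from growing axons, read 5.28, 4.89 and 5.00 in P53-KO/Mta1, against 2.90, 2.99 and 2.82 in P53-KO (4.46-fold higher, log2 difference 2.16, standard error 0.084, adjusted p = 4.35e-10). The arrays without the P53 deletion were near 0, with a WT mean of -0.08. Rises of 1.30 to 1.56 on the log2 scale were seen for St3gal6, a sialyltransferase, Ccbe1, a secreted protein of lymphatic development, Brinp3, Syce2, a component of the synaptonemal complex, B3gnt5, which builds glycolipids, and Atp1b3, a sodium pump subunit. Tfrc, the transferrin receptor that takes up iron, read 0.38, -0.12 and 0.00 in P53-KO/Mta1, against -1.16, -1.20 and -1.25 in P53-KO (2.45-fold higher, adjusted p = 6.23e-07). Esd, an esterase, read 2.48, 0.87 and 1.40 in P53-KO/Mta1, against -0.32, 0.08 and -0.33 in P53-KO. Its values spread widely, and its fold of 3.41 (adjusted p = 0.00727) was not called by the methods' t-test (adjusted p = 0.103). Among neural markers Sox2 rose 2.31-fold while Map2 was 2.08-fold lower and stood at -0.93 after quantile normalization. There the neural marker Nes was called higher (1.01 in place of 0.41).

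Genes of ribosome biogenesis, which process ribosomal RNA and assemble ribosomal subunits in the nucleolus, rose by small amounts in most cases. Of 43 measured 39 rose and 0 fell by adjusted p alone, set against 15.7% of all rows, with a list median of 0.66 (0.50 after quantile normalization). Past a fold of 2 were 4, where 0.394% of all rows were called higher. Mak16 read 0.00, -0.22 and -0.24 in P53-KO/Mta1, against -1.49, -1.37 and -1.66 in P53-KO (2.56-fold higher, adjusted p = 4.32e-07). Ddx10, an RNA helicase, was 2.17-fold higher, and Utp20 and Heatr1, subunits of the machinery that processes the small subunit RNA, were 2.12-fold and 2.01-fold higher. Without P53-KO replicate 3, Ddx10 (0.95) and Heatr1 (0.92) were below a fold of 2 and 2 genes of this list were called. After quantile normalization Utp20 (0.87) and Heatr1 (0.84) were below it. Mrto4 (1.25 in place of 0.83) and Wdr12 (1.21 in place of 0.87) were called there instead, so that 4 genes were again called. Myc, a transcription factor that drives ribosome production, differed by 0.56 and the nucleolar helicase Ddx21 by 0.74. Of the structural ribosomal proteins 0 of 12 measured were called, with 2 higher and 1 lower by adjusted p alone and a median of 0.11.

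Cell division genes shifted in the same direction by less. Against 15.7% of all rows higher and 14.2% lower by adjusted p alone, of 49 mitosis and cell cycle genes 31 rose and 2 fell (median 0.38), of 36 DNA replication genes 21 rose and 0 fell (median 0.34), and of 44 DNA damage and repair genes 23 rose and 1 fell (median 0.22), and each of these medians stayed above 0 after quantile normalization and array centring. Hmmr, a hyaluronan-binding protein that also sits on the mitotic spindle, read 0.08, -0.07 and -0.25 in P53-KO/Mta1, against -0.95, -1.48 and -1.38 in P53-KO (2.28-fold higher, adjusted p = 3.57e-05). Cenpe, the kinesin that carries chromosomes to the metaphase plate, was 2.23-fold higher and stood at 0.97 after quantile normalization. Mki67, the proliferation antigen, differed by 0.92, the repair gene Brca1 by 0.71 and the polymerase subunit Pola1 by 0.88. The median over members of the mean value was 0.01 for mitosis, -0.18 for replication and -0.03 for ribosome biogenesis in P53-KO/Mta1, against -0.43, -0.54 and -0.73 in P53-KO, and WT stood at 0.17, 0.36 and 0.47. The P53-KO arrays were thus the lowest of these 3 groups for each list.

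P53 target genes went both ways. Of 39 measured, 12 fell and 10 rose by adjusted p alone, set against 14.2% and 15.7% of all rows. Ephx1, an epoxide hydrolase, was the 1 called (2.38-fold lower, adjusted p = 2.45e-06), and 2 were called without P53-KO replicate 1, without P53-KO/Mta1 replicate 1 and with treat at a fold of 1.5. The stress response gene Trp53inp1 differed by -0.97, whereas Cdkn1a, which encodes the cell cycle inhibitor P21, differed by 0.36 and Mdm2, the ubiquitin ligase for P53, by 0.44. In the NuRD list 0 of 16 genes were called, where 1.22% of all rows fell and 0.394% rose. Zmynd8, a chromatin reader that binds NuRD, stood just short of a fold of 2 (1.99-fold lower, adjusted p = 4.91e-07), and was called without P53-KO replicate 2 (-1.06), without P53-KO/Mta1 replicate 3 (-1.07) and with treat. Gatad2a, a structural subunit, differed by 0.51. Hypoxia and glycolysis genes (0 of 24), amino acid response genes (0 of 33) and Hox genes (0 of 32) gave no calls, in lists for which those shares amount to less than 1 gene each. Adm, the adrenomedullin gene of the hypoxia list (-0.79), was called without P53-KO replicate 1, and Aldh1l2 of the amino acid list (-0.81) with treat.

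**Figure D3:**
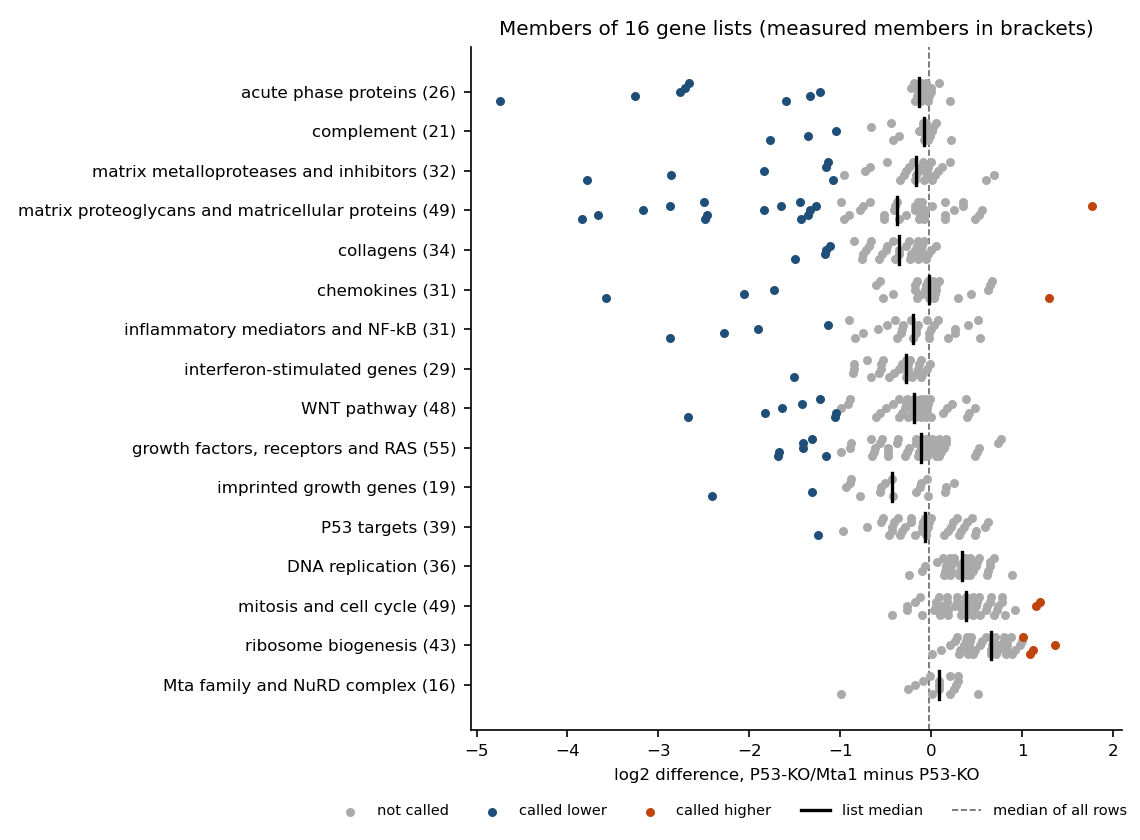
Each dot is a measured member of 1 of 16 gene lists, with the log2 difference of P53-KO/Mta1 minus P53-KO on the x axis, coloured where it was called, a black bar at the list median and a dashed line at the median of all rows (-0.02). A few members lie far to the left in the acute phase, protease and matrix lists, while the ribosome biogenesis list as a whole lies to the right of 0, with a median of 0.66.

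The changes were then set against those in MEFs whose own Mta1 gene was deleted. The test was the difference of responses, (P53-KO/Mta1 minus P53-KO) minus (Mta1-KO/Mta1 minus Mta1-KO), 2 comparisons that share no array. As given above, the Mta1 row was not higher in Mta1-KO/Mta1 than in Mta1-KO. The responses differed by at least 2-fold at an adjusted p under 0.05 in 273 rows (1.63%), 164 lower and 109 higher in the P53-KO MEFs. Of the rows called in P53-KO/Mta1, 109 of the 205 falls and 29 of the 66 rises were among them, the same P53-KO arrays having entered both tests. Of the 205 falls, 35 were also called lower in Mta1-KO/Mta1 and 3 were called higher, and of the 66 rises 5 were also higher and 1 was lower. The share of all rows called in Mta1-KO/Mta1 is not given here, so these counts have no base beside them. The median difference of Mta1-KO/Mta1 minus Mta1-KO was -0.35 over the falls and 0.26 over the rises, against -0.03 over all rows. The backgrounds also differ in embryonic age and in the laboratory the MEFs came from, and neither can be told apart from the genotype. The Y-linked Eif2s3y averaged -3.96 in P53-KO and 0.45 in Mta1-KO.

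For some genes the difference of responses did not pass the test. Cbr2 fell by 2.44 in P53-KO/Mta1 and by 2.60 in Mta1-KO/Mta1 (difference 0.16, standard error 0.12, adjusted p = 0.463), and Clu fell by 1.77 in P53-KO/Mta1 and by 1.65 in Mta1-KO/Mta1 (difference -0.13, standard error 0.16, adjusted p = 0.731). Other genes differed in their responses. The proteoglycan Aspn fell in both, by 2.49 in P53-KO/Mta1 and by 3.35 in Mta1-KO/Mta1, and its difference of 0.85 (standard error 0.14, adjusted p = 0.000844) passed the test but stayed under a fold of 2. Mmp13 differed by -3.78 in P53-KO/Mta1 but by 0.20 (adjusted p = 0.0769) in Mta1-KO/Mta1, and Cxcl15 by -3.58 but by -0.06 (adjusted p = 0.705). Klf15 differed by -1.69 in P53-KO/Mta1 and by 0.05 in Mta1-KO/Mta1 (adjusted p of the difference = 2.32e-06). Npr3, the clearance receptor of natriuretic peptides, moved in opposite directions. It read -1.95, -2.04 and -1.90 in P53-KO/Mta1, against 0.60, 0.52 and 0.69 in P53-KO, and 0.54, 0.49 and 0.51 in Mta1-KO/Mta1, against -1.37, -1.49 and -1.29 in Mta1-KO. Akr1c18 was higher in both, by 1.31 in P53-KO/Mta1 and by 3.98 in Mta1-KO/Mta1 (adjusted p of the difference = 3.34e-08).

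**Figure D4:**
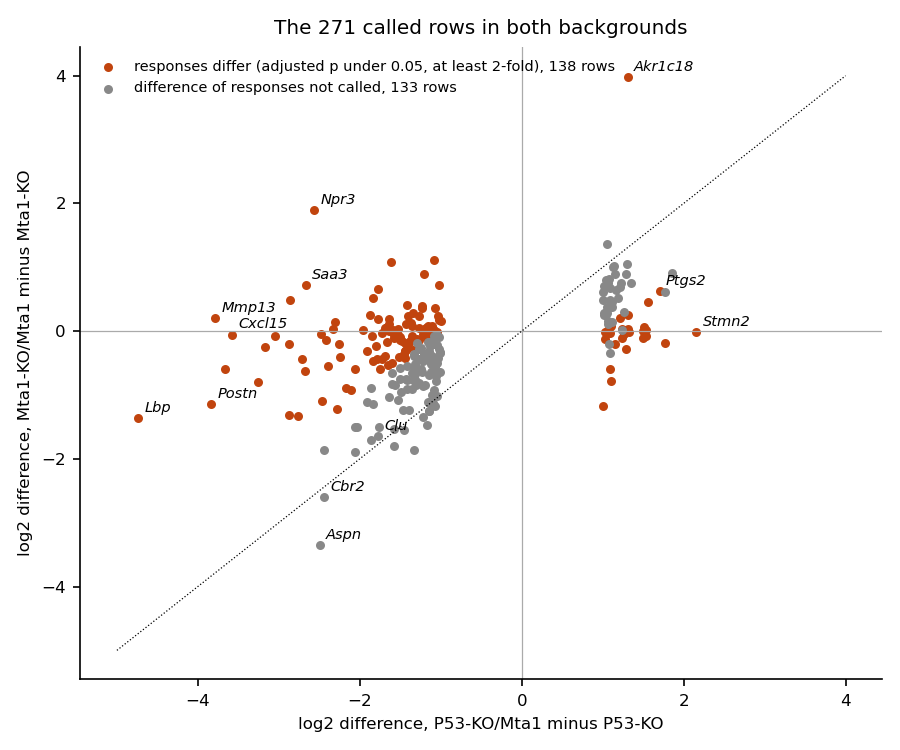
Each point is 1 of the 271 rows called in P53-KO/Mta1 against P53-KO, whose log2 difference is on the x axis, with the log2 difference of Mta1-KO/Mta1 minus Mta1-KO on the y axis. Coloured points are the 109 falls and 29 rises for which the responses differed, and the dotted line marks equal responses. Cbr2 lies by the line, and Mmp13 and Cxcl15 lie near 0 on the y axis.

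**Figure D5:**
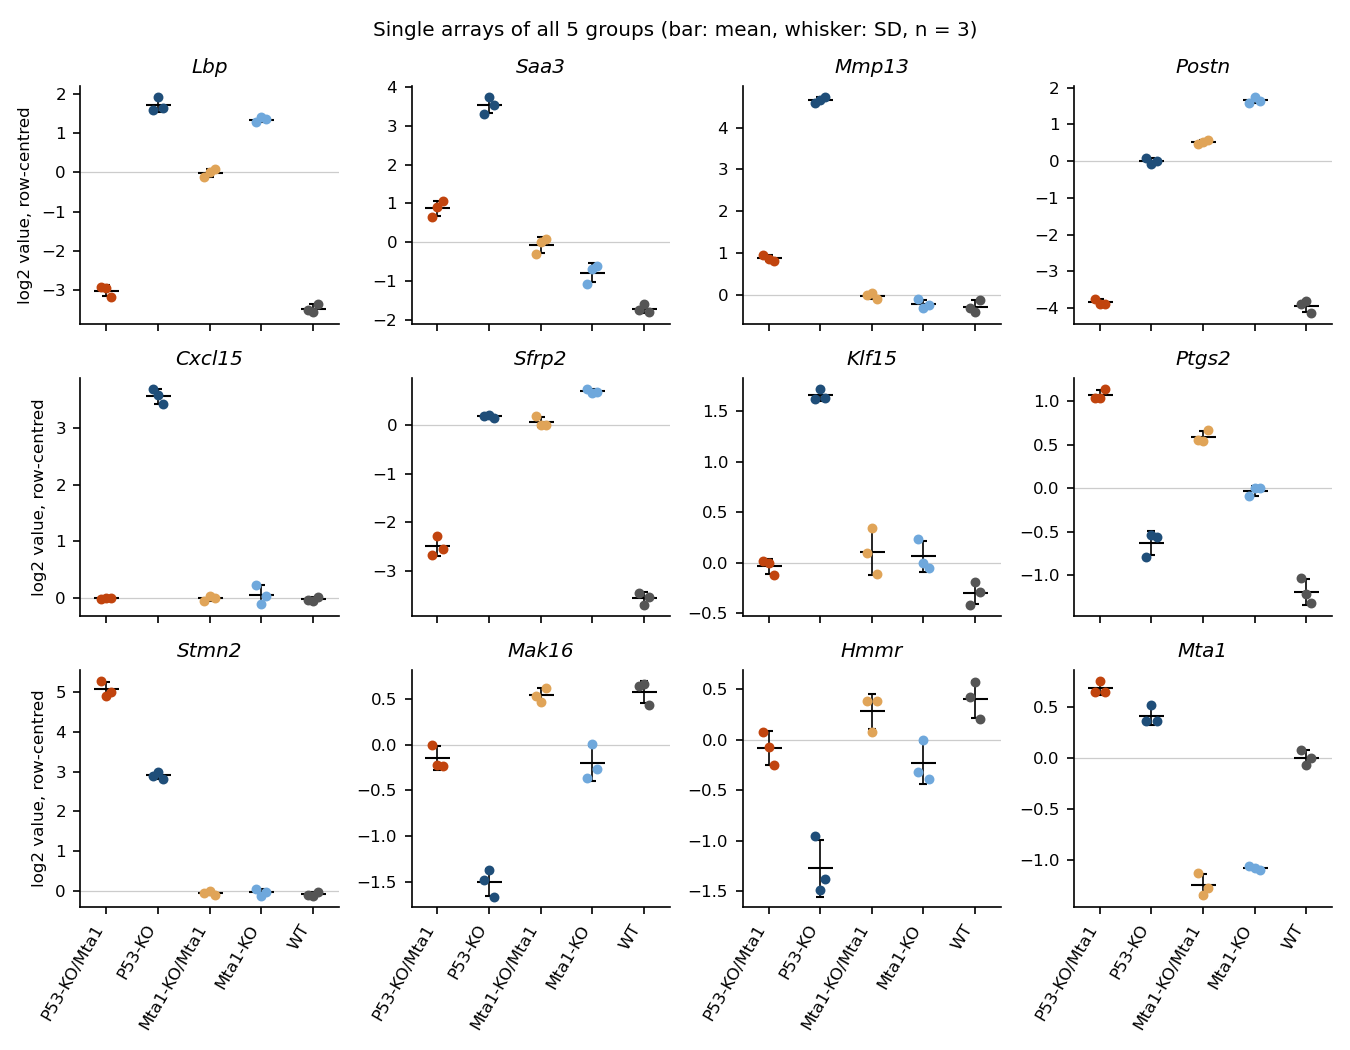
Single arrays of the 5 groups for 12 genes, with the row-centred log2 value on the y axis, 3 dots a group, a bar at the mean and a whisker of 1 SD. For Lbp and Postn the P53-KO/Mta1 arrays lie nearest the WT arrays, for Sfrp2 between the P53-KO and the WT arrays, for Cxcl15 and Klf15 the P53-KO arrays stand above all others, and for Stmn2 both P53-KO groups stand above the rest.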

How the data were processed

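MEF RNA was hybridised to Affymetrix Mouse Exon ST arrays. The deposited log2 values come from GeneSpring GX 10.0.2, where the authors normalized them, and every row has its median over the 15 arrays subtracted (checked, with 0 as the most extreme row median). The sources used here do not give the summarization of exon probes. Centring removed the signal level, so depth, background and a filter on dim probes could not be used. Rows were named from the platform annotation (14996 single gene, 1019 several, 740 none), and 14941 single-gene rows matched a RefSeq gene table by Entrez ID. Rows with several genes were counted but not named, and for the 135 genes with several rows the most variable row stands for the gene (2 were called on some rows only).

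Means of the 5 groups were fitted with limma 3.58.1 in R 4.3.3 (10 residual and 3.46 prior degrees of freedom). Calls needed a Benjamini-Hochberg adjusted p under 0.05 over all 16755 rows and a minimum fold of 2, as in the methods. Pipeline steps were tested on simulated data. Genes named are the 15 largest falls and rises among called single genes without overlap, up to 5 called members of each list (otherwise the 2 with the largest difference), genes the study followed, the Mta family, and the 5 largest of each sign for the difference of responses. Further genes were chosen after their values were seen. The comparison, the gene lists and the rules were chosen with earlier results of these data known. Alternatives were the methods' t-test, the compared arrays alone, quantile normalization, array median centring, adjusted p alone, treat at a fold of 1.5, trend and robust settings, a replicate block and leaving out single arrays. The quantile normalization took in row-centred values of all 5 groups, so a call lost or gained there can come from that step itself. Promoters came from RefSeq (GRCm38.p6), read in Python 3.11.15, with plots by matplotlib 3.10.9. Other assays of the study were not analysed here.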

Additional observations from a re-analysis of the deposited data

Results flagged for a closer look

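Differences between the responses to Mta1 in the P53-KO and the Mta1-KO background were flagged by the limma test of the difference itself, (P53-KO/Mta1 minus P53-KO) minus (Mta1-KO/Mta1 minus Mta1-KO), which called 273 of 16755 rows. The 5 largest of each sign follow, on the log2 scale. Npr3 differed by -4.46 (adjusted p = 1.89e-12), with a response of -2.57 in P53-KO MEFs and 1.90 in Mta1-KO MEFs. Mmp13 differed by -3.98, Cxcl15 by -3.52, Saa3 by -3.38 and Lbp by -3.38. Saa3 moved in opposite directions, by -2.66 in P53-KO MEFs and by 0.72 in Mta1-KO MEFs, whereas Lbp had responses of -4.74 in P53-KO MEFs and -1.36 in Mta1-KO MEFs.

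Of the positive differences, Stmn2 (2.17) came from a rise in P53-KO MEFs, with -0.02 in Mta1-KO MEFs. The interferon-induced genes Ifi27l2a (2.92) and Gvin1 (2.43), and AW551984 (2.53), came from falls in Mta1-KO MEFs of 3.18, 2.39 and 2.79, with responses of -0.26, 0.05 and -0.26 in P53-KO MEFs. Nqo1, a quinone reductase, differed by 2.42, with 0.89 in P53-KO MEFs and -1.53 in Mta1-KO MEFs. Embryonic age and the laboratory of origin differ between the backgrounds and cannot be told apart from the genotype.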

How the results depend on the processing

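The count of called rows was 242 to 339 against 271 under 7 of the alternatives (the methods' t-test, the compared arrays alone, quantile normalization, array median centring, treat at a fold of 1.5, trend and robust settings, and the block), and 274 to 308 when single arrays were left out. Without a minimum fold it was 5003, and 2913 in place of 273 for the difference of responses, since the fold removed most calls. For that difference leaving out single arrays gave 268 to 290. None of the 271 called rows changed sign in any of these. Calls among the named genes ran from 90 to 94 and among list members from 97 to 104 without single arrays. The Mta1 difference of 0.27 lost its adjusted p with the methods' t-test (0.0759) and ran from 0.233 to 0.323 without single arrays.

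Over 136 named genes and 13 settings 1716 results kept direction and side of the threshold, 36 lost and 9 gained a call, and 7 changed sign, all of them near 0 and uncalled in the main comparison. These were Eif2s3y (3 single arrays left out, range -0.0366 to 0.0877, with -0.0245 and -0.0349 without P53-KO/Mta1 replicates 2 and 3), Vegfa (0.226 with quantile normalization, and -0.0481 to 0.0260 without single arrays, with 0.00783 without P53-KO/Mta1 replicate 1) and Gvin1 (-0.0235 without P53-KO/Mta1 replicate 1 to 0.139 without P53-KO/Mta1 replicate 2). Quantile normalization put Robo2, an axon guidance receptor, at -0.33 in place of -1.07. The causes were not tested. Deviations of same-numbered arrays correlated at 0.26, 0.02 and -0.01, and P53-KO/Mta1 replicate 3 correlated best with P53-KO replicate 2 (0.28), so the numbers were not taken as pairs, and the replicate block gave the same count of 271 calls, all shared. With 3 arrays a group the number of arrays limits the precision.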
